A study of Homo sapiens with 2 samples.

Results

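The interferon response and RNA sensing were followed through 32 genes in A549 cells with and without overexpression of PGC-1α. They were taken by gene symbol from a fixed list of RNA sensors, their adaptor MAVS, STAT and IRF factors, and interferon-stimulated genes. All 32 were present among the 58302 genes listed, each in 1 row. A549 is an established human lung adenocarcinoma line. It was grown in F12K medium with serum, and its total RNA was sequenced. The groups were a control (genotype label control) and cells labelled PGC-1alpha overexpression, the coactivator encoded by PPARGC1A. Both belong to the same overexpression experiment, for which the labels give no construct, clone or time. With 1 library per group there is no replicate check on any difference, and every interval covers counting error only.

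The control library held 27125084 counts and the PGC-1α library 24334768. PPARGC1A itself had 5 and 4654 counts, so the labels matched the introduced gene. All 6 epithelial markers were measured. KRT8, KRT18 and KRT7 stood between 1291 and 3899 CPM (counts scaled to the size of the library), each within 1.5-fold. KRT19 and CDH1 were lower with PGC-1α, at log2 ratios of -1.13 (-1.26 to -1.01) and -0.95 (-1.09 to -0.81), and EPCAM stood at 0.58 (0.17 to 0.99), just under 1.5-fold. Their part in the results was not tested. Of 10 immune markers 1, ITGAM, reached a mean of 1 CPM, with PTPRC and CD3E at 2 counts or fewer.

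Cells detect double-stranded or otherwise foreign RNA with the helicases RIG-I (DDX58) and MDA5 (IFIH1), which signal through MAVS on mitochondria and peroxisomes. The signal activates IRF3 and IRF7, which switch on interferon genes. Secreted interferon then acts through its receptors and a complex of STAT proteins and IRF9, which binds the interferon-stimulated response element (ISRE) of its target genes. Many target genes keep a low basal level in unstimulated epithelial cells. PGC-1α is best known as an activator of mitochondrial genes.

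The promoters of 4 members, picked after values had been seen, are shown to set the ISRE core beside the calls. Whether the core bears on the calls was not tested. IFIT1 and IFIT3 were lower in the PGC-1α library, their neighbour IFIT5 was not past the same limit, and IFIH1 was higher, while all 4 windows hold the ISRE core. Sequences are RefSeq's on GRCh38.p14, 5′ to 3′ on the gene's strand, from 250 bases before to 50 after a start site, and the start nearest to the gene's start in the files was taken. Capitals mark matches to the ISRE core, searched as GAAA, any 2 bases and GAAA, on either strand with overlaps allowed. The windows are chr10:89392373-89392672 on the plus strand for IFIT1, chr10:89327747-89328046 on the plus strand for IFIT3, chr10:89414318-89414617 on the plus strand for IFIT5 and chr2:162318635-162318934 on the minus strand for IFIH1.
IFIT1: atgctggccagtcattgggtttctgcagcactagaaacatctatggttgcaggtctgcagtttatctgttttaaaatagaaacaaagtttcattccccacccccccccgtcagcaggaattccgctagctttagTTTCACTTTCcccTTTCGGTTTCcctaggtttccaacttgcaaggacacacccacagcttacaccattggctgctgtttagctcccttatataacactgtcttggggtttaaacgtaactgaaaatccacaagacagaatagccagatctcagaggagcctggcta
IFIT3: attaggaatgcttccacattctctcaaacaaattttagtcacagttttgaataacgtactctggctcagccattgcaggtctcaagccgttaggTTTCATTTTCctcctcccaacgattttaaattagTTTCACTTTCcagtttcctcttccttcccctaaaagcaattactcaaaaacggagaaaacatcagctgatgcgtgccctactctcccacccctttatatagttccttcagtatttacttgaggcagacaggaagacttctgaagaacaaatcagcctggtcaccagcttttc
IFIT5: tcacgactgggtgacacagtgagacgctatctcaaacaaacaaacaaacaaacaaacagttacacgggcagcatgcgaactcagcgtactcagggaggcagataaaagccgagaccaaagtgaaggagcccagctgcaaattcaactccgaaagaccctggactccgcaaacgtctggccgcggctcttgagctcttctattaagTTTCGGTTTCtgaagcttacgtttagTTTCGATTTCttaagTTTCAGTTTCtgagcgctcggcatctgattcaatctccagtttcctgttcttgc
IFIH1: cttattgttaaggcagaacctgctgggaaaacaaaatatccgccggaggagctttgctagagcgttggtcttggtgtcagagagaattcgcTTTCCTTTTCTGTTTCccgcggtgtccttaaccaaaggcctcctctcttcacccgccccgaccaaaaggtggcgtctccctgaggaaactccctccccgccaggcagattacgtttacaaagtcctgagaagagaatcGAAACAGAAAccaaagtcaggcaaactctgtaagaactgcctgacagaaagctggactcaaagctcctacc

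In IFIT1 the matches began 116 and 103 bases before the start site, and in IFIT3 156 and 122 bases before it. Those of IFIT5 lay closer, at 45, 19 and 4 bases. IFIH1 had an overlapping pair at 159 and 153 bases and another at 21 bases. RefSeq promoters were found for 23 of the 32 members, DDX58 under its current symbol RIGI. By gene, 15 of these 23, or 65.2%, held the ISRE core in at least 1 window, against 4.38% of all 27305 genes in the table. STAT dimers without IRF9 bind another element, GAS, here searched as TTC, any 3 bases and GAA, which is its own reverse complement. It was found in 8 of the 23 members and in 9.38% of all genes. The members were chosen as interferon targets, so their share of motifs describes the set. A match is not a shown binding site.

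Of the genes with enough counts to compare, most were not past 1.5-fold, and 3 of the 5 that were belong to the IFIT family. Measured genes were those whose mean over both libraries reached 1 CPM, which took in 21 of the 32. Calls of higher or lower needed a difference of at least 1.5-fold in normalised counts and an exact 95% interval of the ratio that excluded 1. IFIT1, IFIT2, IFIT3 and IFITM2 were lower in the PGC-1α library, IFIH1 was higher, and 16 were neither. Of all 14154 measured genes, 3.93% were lower and 5.29% higher by the same limits. The 4 lower members are 4 of 21 measured, and the 1 higher is 1 of 21. The members' median log2 ratio was -0.11, beside -0.01 for all measured genes, and 15 of the 21 were below 0. Of all 14154 measured genes, 7228 were below 0. The intervals of 12 of the 21 members included 0.

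**Figure D1:**
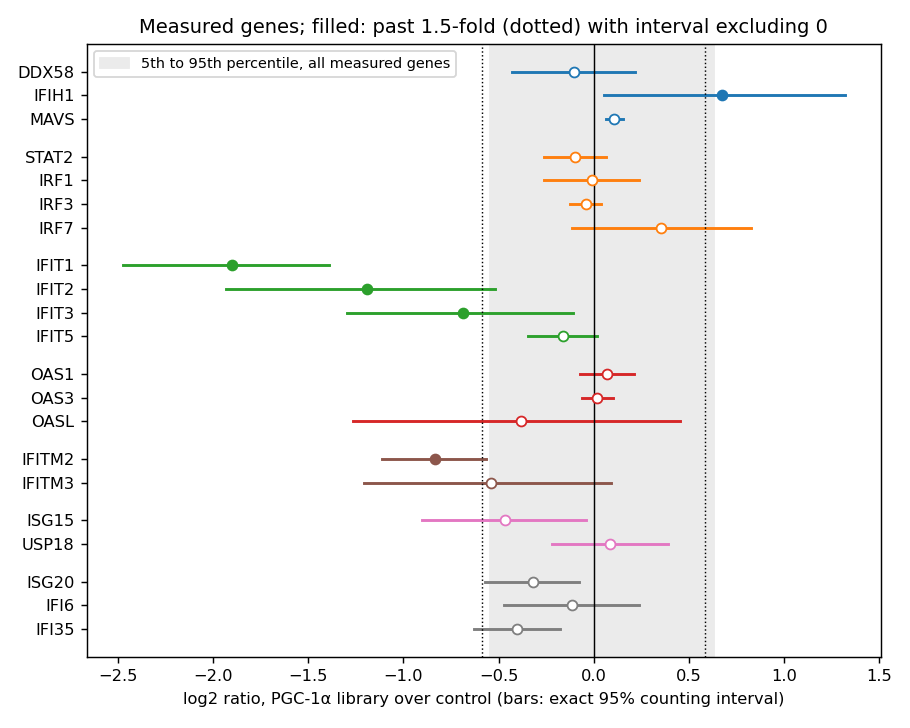
Log2 ratio of PGC-1α over control for the 21 measured members, grouped by role, with exact 95% counting intervals as bars. Filled points passed 1.5-fold (dotted lines) with an interval excluding 0: IFIT1, IFIT2, IFIT3 and IFITM2 to the left and IFIH1 to the right. The grey band spans -0.55 to 0.63, the 5th to 95th percentile of all measured genes.

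Level matters for these calls. Of the 5 called members, 4 had a mean of 1 to 5 CPM, where 9.44% of 3060 genes were lower and 12.0% higher, against 2.41% and 3.43% of the genes at 5 CPM or more. In the range of 1 to 5 CPM, 4 of 8 members were called, and above it 1 of 13. Among all measured genes, 22 had a log2 ratio at or below that of IFIT1, 100 at or below that of IFIT2, 442 at or below that of IFIT3 and 278 at or below that of IFITM2. For IFIH1, 632 genes were as high or higher.

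**Figure D2:**
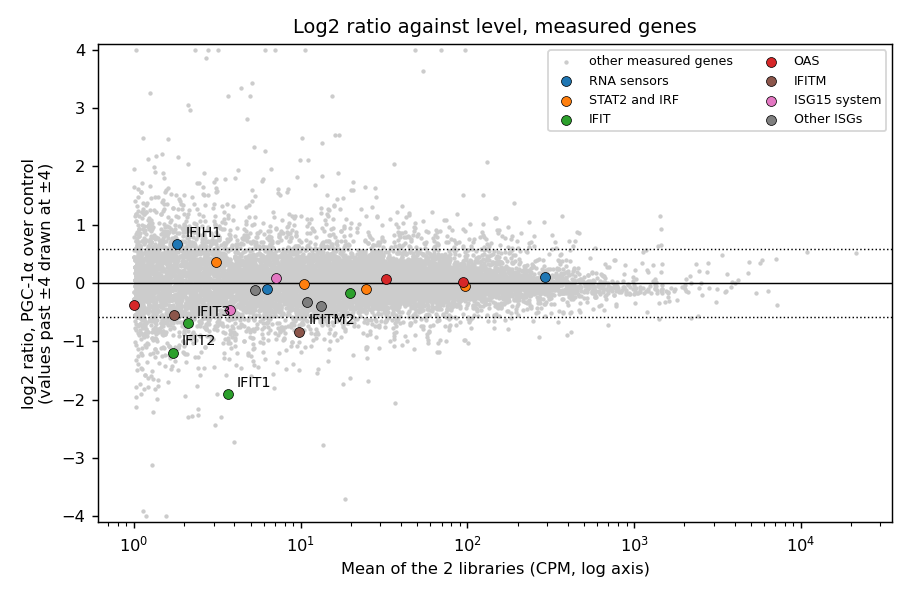
Log2 ratio of PGC-1α over control against the mean level in CPM (log axis) for all 14154 measured genes, with the 21 measured members in colour by role. The 5 called members are named, and IFIT1, IFIT2, IFIT3 and IFIH1 lie between 1 and 5 CPM, where the grey points spread most.

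Per length, IRF3, MAVS and OAS3 stood highest of the set in both libraries. In the deposited FPKM, IRF3 stood highest in the control at 25.9, followed by MAVS at 23.9 and OAS3 at 11.4. In the PGC-1α library MAVS was first at 25.4, followed by IRF3 at 24.8 and OAS3 at 11.4. MAVS, IRF3 and OAS3 held 73.2% of all counts of the 32 genes in the control, and 76.3% with PGC-1α. Summed over the 32 genes, the control held 642.6 CPM and the PGC-1α library 642.5. MX1, IFI44, IFI44L, BST2 and XAF1 were all at or below 0.133 FPKM in both libraries, while ISG15, IFI6 and OAS1 stood between 3.35 and 6.70.

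**Figure D3:**
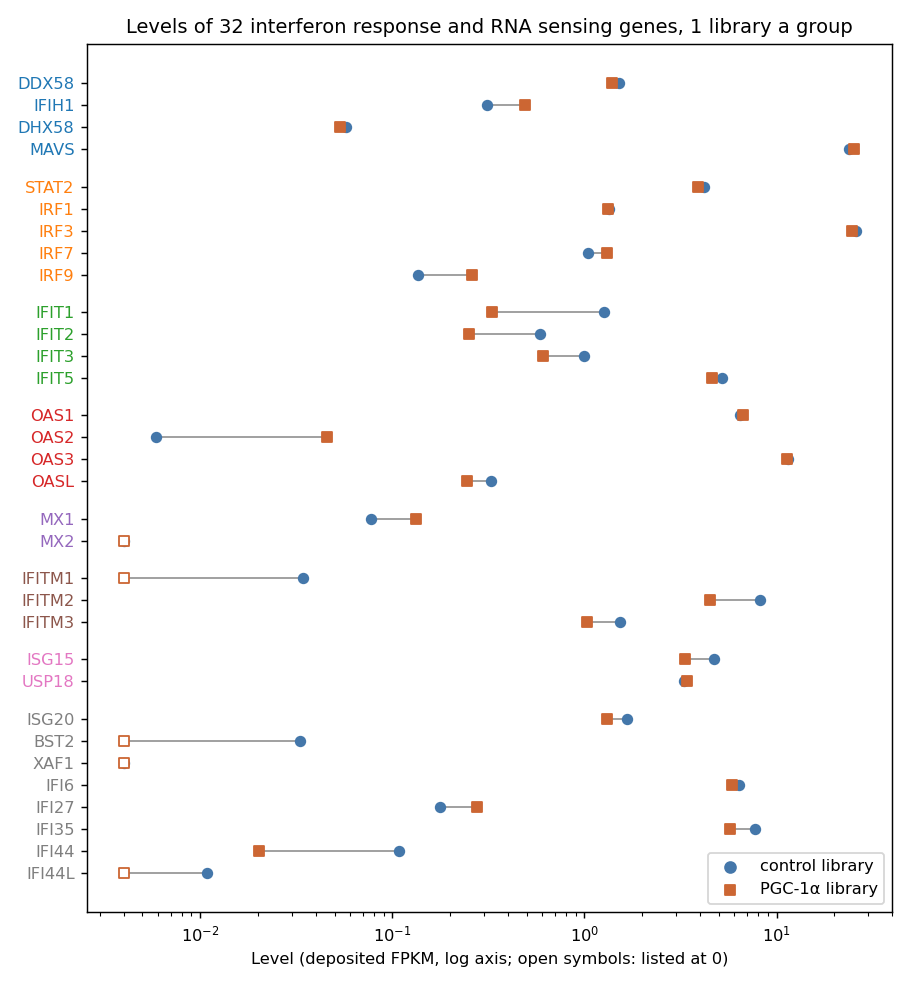
Deposited FPKM of the 32 genes in the control (circles) and the PGC-1α library (squares) on a log axis, with symbols coloured by library and gene names by role. Open symbols at the left edge are genes listed at 0. The levels span from 25.9 FPKM for IRF3 down to 0 for MX2 and XAF1, and the symbol pairs of MAVS, IRF3 and OAS3 nearly coincide.

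Among the RNA sensors, IFIH1 was higher and the others were close together. IFIH1 (MDA5, the sensor of long double-stranded RNA; chromosome 2, 162267079 to 162318703) had 38 counts without and 54 with PGC-1α. This was 1.39 and 2.23 CPM, a log2 ratio of 0.67 with an interval of 0.05 to 1.32, so the lower bound was close to equality. With the FPKM and a pseudocount of 0.1 its log2 ratio was 0.52, under 1.5-fold. DDX58 (RIG-I, the sensor of RNA with a triphosphate end) had 178 and 147 counts, for a log2 ratio of -0.10 (-0.43 to 0.22). DHX58 (LGP2, a related helicase that lacks the signalling domains) had 6 and 5 counts and was not measured. MAVS had 7618 and 7290 counts, for a log2 ratio of 0.11 (0.06 to 0.16). Its interval excluded 0, but the difference was far below 1.5-fold.

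The transcription factors showed no called difference. IRF3, the factor phosphorylated after RNA sensing, had 2658 and 2291 counts, for a log2 ratio of -0.04 (-0.12 to 0.04). It overlaps BCL2L12 on the opposite strand by 734 exonic bases, and BCL2L12 had 1416 and 1350 counts. IRF7, which amplifies the interferon response, had 74 and 84 counts, for a log2 ratio of 0.35 (-0.11 to 0.83). IRF1, a factor induced by interferon gamma, stood at -0.01 (-0.26 to 0.24) with 285 and 251 counts. It overlaps C5orf56 on the opposite strand by 1716 exonic bases, and C5orf56 had 30 and 39 counts. STAT2 had 697 and 578 counts, for a log2 ratio of -0.10 (-0.26 to 0.06). IRF9, the ISRE-binding partner of STAT2, was below the limit for measured genes, with 14 and 24 counts. Its count is uncertain, since 43.2% of its 50-base words also occur in AL136295.5 on the same strand, which had 16 and 25 counts.

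The IFIT family held 3 of the 4 lower members. Its IFIT1 protein binds viral RNA that lacks normal cap methylation. IFIT1 (ENSG00000185745, chromosome 10, 89392546 to 89406486, plus strand) had 157 counts without and 37 with PGC-1α. Its level was 5.76 and 1.53 CPM, 3.73-fold lower with PGC-1α, and the log2 ratio was -1.90 (-2.47 to -1.39). Fewer cells expressing the gene and less RNA per cell cannot be told apart in bulk RNA. IFIT2 (89283694 to 89309276) had 65 and 25 counts, for a log2 ratio of -1.19 (-1.93 to -0.52). IFIT3 (89327894 to 89340971) had 71 and 39 counts, for a log2 ratio of -0.69 (-1.29 to -0.11). IFIT1 thus lay past 2-fold over its whole interval, while the bounds of IFIT2 and IFIT3 nearest to 0 were under 1.5-fold.

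IFIT5 (89414586 to 89421001), the fourth member of the cluster, was the most abundant of the family and differed least. It had 568 and 450 counts, 5.22 and 4.6 FPKM, and a log2 ratio of -0.16 (-0.35 to 0.02). The other IFIT genes stood at 0.585 to 1.26 FPKM in the control. All 4 IFIT genes summed to 31.6 CPM in the control and to 22.8 CPM with PGC-1α. IFIT1, IFIT2 and IFIT3, the 3 called lower, summed to 10.7 CPM in the control and to 4.17 CPM with PGC-1α.

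The IFIT genes lie along LIPA, the gene of lysosomal acid lipase, on the strand opposite to it. In the files LIPA spans 89213569 to 89414557 on chromosome 10, with IFIT2, IFIT3 and IFIT1 inside that span and IFIT5 starting 29 bases beyond the LIPA start. LIPA had 2704 and 1819 counts, for a log2 ratio of -0.40 (-0.49 to -0.31), below 1.5-fold. The labels give no strand setting, so reads from LIPA RNA that fall in an IFIT exon could be counted for the IFIT gene. By GENCODE release 29, with the same coordinates for these genes, LIPA and IFIT1 share 0 exonic bases, LIPA and IFIT3 share 0, and LIPA and IFIT2 share 65.

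IFIT1 lies within a single LIPA intron of 70.1 kb, together with IFIT1B and the pseudogene IFIT6P. Both of those had 0 counts in both libraries. AL353751.1, which lies along IFIT2 inside LIPA, also had 0 in both. In each library a count of 0 allows up to 1.52 counts per kb of exon in IFIT1B, 2.51 in IFIT6P and 2.96 in AL353751.1. AL353751.1 shares 135 exonic bases with LIPA and 356 with IFIT2. How reads in shared bases were counted is not given, so its 0 sets no limit on reads from LIPA. IFIT1 had 34.0 counts per kb of exon without PGC-1α and 8.02 with it, IFIT2 15.8 and 6.10, and IFIT3 26.9 and 14.8. IFIT1 was above IFIT1B and IFIT6P of the same intron in both libraries. IFIT2 and IFIT3 lie elsewhere and span LIPA exons, so the 0 of IFIT1B and IFIT6P sets no limit there. LIPA itself had 551 and 370 counts per kb, so that IFIT1 stood at 6.18% of the LIPA density in the control, and at 2.17% with PGC-1α.

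Set against LIPA, IFIT1 and IFIT2 were lower beyond counting error, while the interval of IFIT3 included no difference. The ratio of each gene to LIPA does not depend on how the libraries are scaled, and its exact interval comes from the 4 counts. The difference in log2 ratio from LIPA, by the exact conditional estimate, was -1.51 for IFIT1 (-2.08 to -0.98). It was -0.81 for IFIT2 (-1.54 to -0.11) and -0.29 for IFIT3 (-0.90 to 0.30). IFIT5 stood above LIPA, at 0.24 (0.03 to 0.44). On the log2(FPKM + 1) scale, which understates changes of low genes, the differences were -0.37 for IFIT1, 0.054 for IFIT2 and 0.085 for IFIT3, so that IFIT2 and IFIT3 turned in sign. How much of any IFIT count came from LIPA RNA was not tested.

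**Figure D4:**
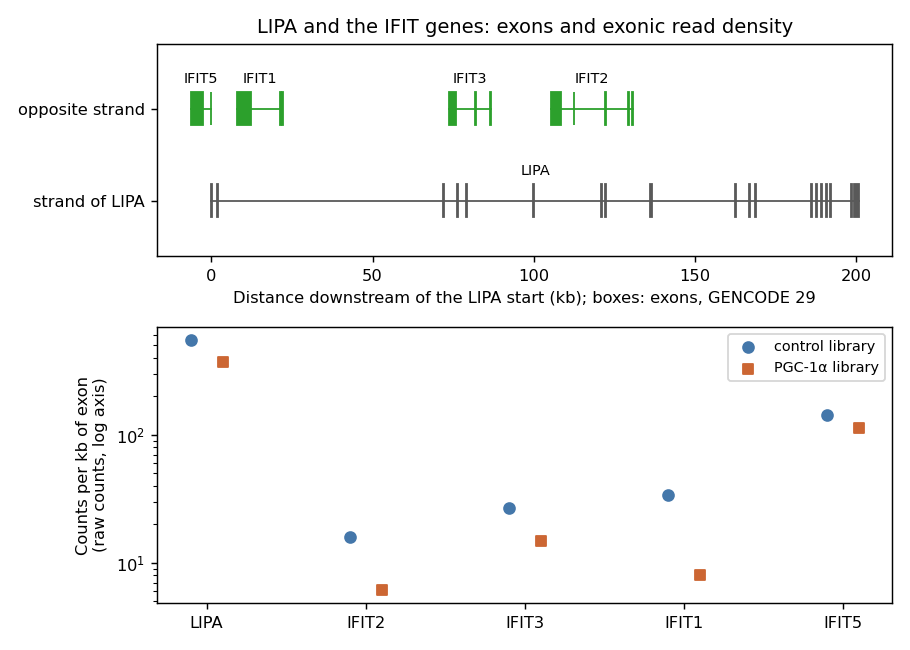
Top, exons of LIPA and of the IFIT genes on the opposite strand by distance downstream of the LIPA start in kb (GENCODE 29). Bottom, raw counts per kb of exon on a log axis in the control (circles) and the PGC-1α library (squares). IFIT1 stands at 34.0 and 8.02 and LIPA at 551 and 370 counts per kb.

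The OAS enzymes, which make 2-5A from double-stranded RNA and so activate RNase L, were not called. OAS3 had 2549 and 2291 counts and 11.4 FPKM in each library, a log2 ratio of 0.02 (-0.06 to 0.10). OAS1 had 867 and 808 counts, for a log2 ratio of 0.07 (-0.07 to 0.21). For these well-counted genes a 1.5-fold difference lay outside the counting interval in either direction. OASL, a family member without the enzyme activity, had 31 and 21 counts, for a log2 ratio of -0.38 (-1.26 to 0.46). That interval included a 1.5-fold decrease, while a 1.5-fold increase lay outside it. OAS2 had 1 and 7 counts and was not measured; its log2 ratio was 2.46 with an interval of 0.02 to 8.47. The MX genes, dynamin-like GTPases that block viruses, were not measured either, with 18 and 28 counts for MX1 and 0 in both for MX2.

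Of the IFITM genes, small membrane proteins that hinder viral fusion, IFITM2 was lower. IFITM2 (ENSG00000185201, chromosome 11, 307631 to 315272, plus strand) had 342 counts without and 170 with PGC-1α. Its level was 12.5 and 7.02 CPM, a log2 ratio of -0.83 (-1.11 to -0.57). IFITM2 was the called member with the most counts. IFITM3 had 56 and 34 counts, for a log2 ratio of -0.54 (-1.21 to 0.09). IFITM1 had 1 and 0 counts. These genes have near-identical copies, so their counts are uncertain: 34.3% of the 50-base words of IFITM2 transcripts also occur in transcripts of other genes, 21.6% in IFITM1 and 12.9% in IFITM3. The annotation puts IFITM1 wholly within the span of IFITM2, with 351 shared exonic bases.

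Neither ISG15 nor its protease was called. ISG15, a ubiquitin-like protein joined to other proteins, had 120 and 77 counts, for a log2 ratio of -0.47 (-0.90 to -0.04), under 1.5-fold. USP18, the protease that removes ISG15 and restrains interferon signalling, had 189 and 178 counts, for a log2 ratio of 0.09 (-0.22 to 0.39). Of the 50-base words of USP18, 23.0% also occur in USP41, which had 1 and 0 counts.

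Of the remaining members, IFI35 and ISG20 were lower by less than 1.5-fold, and the interval of IFI6 included 0. The others were not measured. IFI35 had 411 and 276 counts, for a log2 ratio of -0.40 (-0.63 to -0.18). ISG20, an exonuclease gene, had 331 and 235 counts, for a log2 ratio of -0.32 (-0.57 to -0.08). IFI6, a small mitochondrial and endoplasmic reticulum protein, had 150 and 123 counts, for a log2 ratio of -0.11 (-0.47 to 0.24). With ISG15, IFI35 and ISG20 were the 3 members whose interval lay wholly below 0 without reaching 1.5-fold, and MAVS was the 1 wholly above 0.

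Of the 32 members, 11 were not measured, and 2 of them, MX2 and XAF1, had 0 counts in both libraries. A count of 0 allows up to 3 counts, or 0.110 CPM in the control library and 0.124 CPM with PGC-1α. For XAF1 the 0 is uncertain, since 34.7% of its 50-base words also occur in PRAL. That gene lies on the opposite strand and had 0 counts in both libraries. IFITM1, BST2 (tetherin, which holds budding virus at the membrane) and IFI44L had 0 counts in the PGC-1α library, against 1, 1 and 3 in the control. IFI44 had 6 and 1. Just under the limit of 1 CPM were IFI27 with 20 and 28 counts, MX1 with 18 and 28, and IRF9 with 14 and 24. Their log2 ratios were 0.64 (-0.22 to 1.56), 0.79 (-0.10 to 1.75) and 0.92 (-0.06 to 2.01). OASL, with a mean of 1.00 CPM, was just above it.

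The wider pathway was read from further lists of genes. Interferon genes themselves were at or near 0: 7 of 9 listed had 0 counts in both libraries, and IFNE, an epithelial interferon, was the 1 measured, with 34 and 41 counts and a log2 ratio of 0.44 (-0.25 to 1.14). Of 19 further genes of RNA sensing, 16 were measured, with a median log2 ratio of -0.03. Of these 16, 0 were called, beside 3.93% lower and 5.29% higher over all measured genes. The most abundant were ADAR, the RNA-editing enzyme, at -0.11 (-0.16 to -0.07) and EIF2AK2, the kinase PKR, at -0.11 (-0.19 to -0.04). Of 7 genes of DNA sensing 3 were measured and 0 called, in a list too short to set against these shares. SAMHD1 stood at -0.18 (-0.35 to -0.01) and MB21D1, the DNA sensor cGAS, at 0.01 (-0.19 to 0.20). Of 5 further IRF genes 2 were measured, IRF2 at -0.10 (-0.32 to 0.12) and IRF5 at 0.25 (0.01 to 0.49).

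Among interferon receptors and JAK-STAT genes, 2 of 12 measured genes were lower and 0 higher, beside 3.93% lower and 5.29% higher over all measured genes. IFNLR1, the receptor chain for lambda interferons, had 139 and 69 counts, for a log2 ratio of -0.83 (-1.28 to -0.41). SOCS3, a feedback inhibitor of cytokine receptors, had 1240 and 709 counts, for a log2 ratio of -0.63 (-0.77 to -0.50). The median of the 12 was -0.06.

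Other interferon-stimulated genes went both ways. Of 32 listed, 24 were measured, 1 was higher and 2 were lower, with a median of -0.04, again beside 5.29% higher and 3.93% lower over all measured genes. GBP3, IFNLR1 and HLA-F lay between 1 and 5 CPM, where 9.44% were lower. TRIM14, a MAVS-binding protein, had 816 and 1323 counts, for a log2 ratio of 0.87 (0.74 to 1.00). LGALS3BP, a secreted glycoprotein, had 1856 and 959 counts, for a log2 ratio of -0.78 (-0.89 to -0.67). GBP3, an interferon-induced GTPase, had 58 and 25 counts, for a log2 ratio of -1.03 (-1.78 to -0.34). Of 13 antigen presentation genes all were measured, HLA-F was lower at -0.67 (-1.28 to -0.09) with 70 and 39 counts, and the median was -0.16. HLA genes resemble each other closely, so the count of HLA-F is uncertain.

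**Figure D5:**
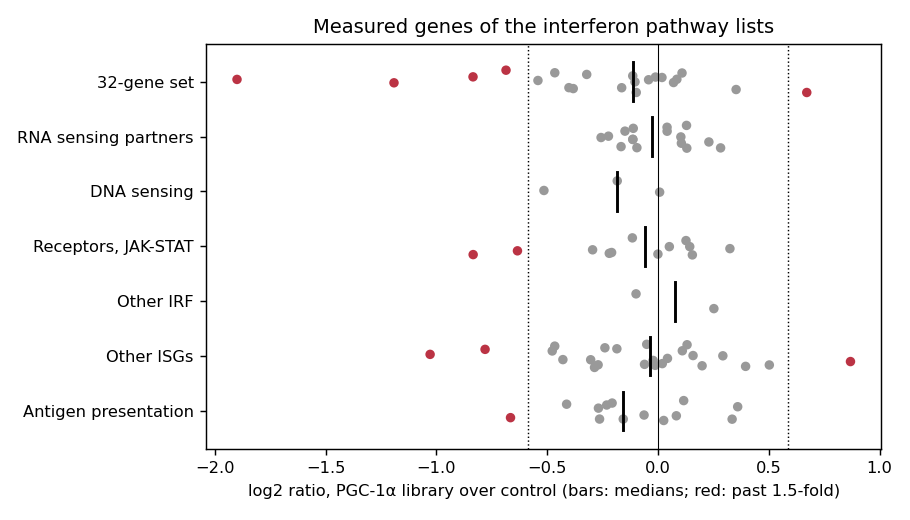
Log2 ratio of PGC-1α over control for measured genes of the 32-gene set and of 6 further pathway lists, with the median of each as a bar. Red points passed 1.5-fold (dotted lines) with an interval excluding 0. Most points lie within the dotted lines, and the medians range from -0.18 for DNA sensing to 0.08 for other IRF genes.

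Genes with the ISRE core stood on both sides of equality. Of the 9 measured members with the core, 2 were lower and 1 higher, with a median log2 ratio of -0.32. The 6 measured members with a promoter but no core had a median of -0.05, with 0 lower and 0 higher. IFIT2 and IFITM2, both called lower, had no RefSeq promoter here and were not searched. Over the rest of the measured genes, matched by symbol, 371 had the core in a promoter window. Of these 5.12% were lower and 4.04% higher, with a median of -0.03. Among the 9686 without it 3.27% were lower and 4.75% higher, with a median of -0.01.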

How the data were processed

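RNA-seq gene tables of 2 A549 libraries were used. Raw counts per gene were deposited by the authors, with symbols, coordinates and lengths per the file headers. FPKM values were deposited by the authors separately. For all 25852 and 25858 genes above 0 they equalled counts per length and a single library size (relative tolerance 1e-06), so they are no separate measurement. The submitters' processing notes name TopHat2 2.0.9 with Bowtie2 2.0.6, and Cuffdiff 2.1.1 with Cufflinks 2.1.1, without a role. For the counter, the build and the strand setting, the sources used here give nothing. Gene starts and ends matched GENCODE 29 (GRCh38) for 97.6% of shared identifiers and 31 of the 32 members, and coordinates are read as GRCh38.

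Counts were scaled with TMM factors of 1.01 and 0.995 (edgeR 4.0.16, R 4.3.3), 0.5 was added to each, and exact 95% intervals came from Clopper-Pearson intervals of the split of both counts. Without molecular identifiers, reads are not independent molecules, so intervals and limits cover counting error only. With 1 library a group, edgeR's quasi-likelihood test could not be fitted for want of residual degrees of freedom, so there are no p-values. The calculation was tested on simulated counts that varied by counting error only, so that test says nothing of variation between libraries. IFIT genes were set against LIPA by the exact conditional odds ratio. Near-identical copies were measured as the share of a gene's 50-base words found in GENCODE 29 transcripts of other genes, on either strand. Alternatives were DESeq2 1.42.0 size factors, total counts, other filters, pseudocounts and folds, the FPKM, and subsets of members. Calculations ran in Python 3.11.15 with pandas 2.3.3, scipy 1.17.1 and numpy 2.4.6, and figures were drawn with matplotlib 3.10.9.

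The members and lists were chosen with earlier results of these data known. All members are named, with overlapping genes that bear on them; in other lists up to 4 called genes, or the 2 most abundant where none was called. The motif search, word sharing and LIPA exon comparison were added after values had been seen. Some genes of the lists are counted but not named here.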

Additional observations from a re-analysis of the deposited data

How the results depend on the processing

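DESeq2 size factors, total counts and a pseudocount of 2 counts left the 4 lower and 1 higher members called, and none of the 21 ratios left its counting interval. The calls depended on level and on overlap. Without a filter on low counts 2 members were higher, the added one being OAS2, and 4 were lower. With a mean of at least 5 CPM, 0 were higher and 1 lower, IFITM2, since 13 members were left. Of all genes at that level 2.41% were lower and 3.43% higher. At 2-fold, 0 were higher and 2 lower. The shares over all genes at 2-fold and without the filter are not given here. Without the members that overlap a more abundant gene, which removes IFIT1, IFIT2 and IFIT3, 1 was lower. Without members that share 10% or more of their 50-base words, an alternative chosen after seeing the data, 3 were lower and 1 higher. On the FPKM scale 0 were higher with a pseudocount of 0.1 or of 1, and 2 were lower with a pseudocount of 1. That pseudocount is about the level of IFIT1, IFIT2 and IFIT3 and far below that of LIPA, and it moved the differences from LIPA to -0.37 for IFIT1, 0.054 for IFIT2 and 0.085 for IFIT3, the last 2 with their sign turned. IFIH1 stood at 0.52 and 0.19 with these pseudocounts. No paired analysis was possible because each group held 1 library, and no library could be left out. At this depth members with few counts had wide intervals, and that of OASL still included a 1.5-fold decrease.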

Other observations

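Barely detected interferon-stimulated genes went both ways. Some had more counts in the PGC-1α library, against the direction of the IFIT genes, and some had fewer. How often genes this low pass the same limits is not given here. CMPK2, an interferon-induced nucleotide kinase gene picked after its values were seen, had 1 count without and 12 with PGC-1α, at a log2 ratio of 3.20 (1.00 to 9.17). OAS2 had 1 and 7 counts. Fewer counts with PGC-1α were seen for IFI44, with 6 and 1, and for IFI44L, with 3 and 0. All of these genes were below a mean of 1 CPM. TLR3, the endosomal sensor of double-stranded RNA, was also picked after its values were seen. It had fewer counts with PGC-1α, 35 and 16, a log2 ratio of -0.94 (-1.91 to -0.07), at a mean of 0.972 CPM.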
